A study of Mus musculus with 24 samples.

Results

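In alcohol-fed male mice, a hairpin vector against the aryl hydrocarbon receptor (AhR) was added to hairpin vectors against Kdm5b and Kdm5c, and whole-liver RNA was compared with that of males that received a control hairpin in its place. The comparison rests on 6 of the 24 libraries of the series, chosen by the sex and the injections in the labels and not by any measured value. The 3 Kdm5/AhR livers came from males injected first with AAV-shKdm5b and AAV-shKdm5c and then with AAV-shAhR. The 3 Kdm5/control livers came from males given the same first injection and then AAV-shControl. All mice of the study carried adeno-associated virus (AAV) vectors and were fed the Lieber-DeCarli alcohol liquid diet for 3 weeks, so every group, the controls included, shares alcohol feeding and viral vectors. Beside this pair stand 3 control/AhR males (AAV-shControl, then AAV-shAhR) and 3 control/control males (AAV-shControl at both injections), and the same Kdm5/AhR and Kdm5/control groups in females, 3 libraries each. Strain, age, vector serotype and dose, the promoter that drives the hairpins and the time between the injections are items not given in the sources used here. The labels do not state in words that each library came from its own mouse, so p-values measure the spread between these samples.

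AhR is a ligand-activated transcription factor of the basic helix-loop-helix PAS family. On binding dioxins, plant indoles or tryptophan metabolites it enters the nucleus, pairs with ARNT and binds response elements with the core GCGTG, which in liver raises Cyp1a and other detoxification genes. KDM5B and KDM5C are demethylases that remove methyl groups from lysine 4 of histone H3, a mark of active promoters. Hairpin RNAs carried by AAV lower a messenger RNA by RNA interference. The comparison asks what an AhR hairpin does to the male liver when the Kdm5 hairpins are already present.

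The values are FPKM, read fragments corrected for how long the transcript is and how deeply the library was mapped, as deposited for 2372 genes. Of these, 2299 had at least 1 FPKM in at least 3 of the 24 libraries and were tested with limma as log2(FPKM + 0.5). Fold changes are on this scale, so those of low genes come out smaller than they were; a ± beside one is a standard error, and a gene passed at an adjusted p under 0.05. Read depth is unknown, since FPKM removes it. The first principal component of the 6 libraries held 42.0% of their variance and placed all 3 Kdm5/AhR livers on one side and all 3 Kdm5/control livers on the other. Kdm5c, a target of the first injection in both groups, had 5.11, 5.36 and 4.86 FPKM in Kdm5/AhR livers and 4.89, 4.64 and 5.89 FPKM in Kdm5/control livers, which overlap (95% interval of the log2 fold change -0.23 to 0.23). Control/AhR and control/control males had 6.92, 7.69 and 7.81 FPKM and 6.39, 6.8 and 7.21 FPKM, so each of the 6 libraries with Kdm5 vectors lay below each of the 6 without them. Kdm5b and Ahr were not analysed here, so the knockdown of Ahr itself has no value. The 12 tested hepatocyte markers summed to between 44093 and 45560 FPKM in Kdm5/AhR livers and between 41454 and 42948 FPKM in Kdm5/control livers, and none of them was at 0 in all 6 libraries.

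With the AhR vector added, 4 genes rose and 17 fell, 0.913% of the 2299 genes tested, 0.174% in the higher direction and 0.739% in the lower. The 4 that rose were Hsd17b6, a hydroxysteroid dehydrogenase that acts on androgens, Phlda1, which encodes a pleckstrin homology-like protein, Onecut1, the hepatocyte transcription factor HNF6, and H2-Ab1, the beta chain of a class II antigen-presenting complex. Among the 17 that fell were the transcriptional repressor Bcl6 and 5 genes of metabolic enzymes, Sult1d1, Cyp39a1, Acacb, Acss3 and Maoa. The sizes among the called genes ran between a 3.19-fold fall for Bcl6 and a 2.35-fold rise for Hsd17b6. At an unadjusted p under 0.05 there were 379 genes, and the median log2 fold change over all tested genes was -0.01, with quartiles at -0.19 and 0.12. In 241 genes (10.5% of those tested) all 3 Kdm5/AhR livers lay above all 3 Kdm5/control livers, and in 392 (17.1%) all 3 lay below.

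The calls depended on single libraries. Without Kdm5/AhR library 1, 2 or 3 the count of called genes was 14, 5 or 0, and without Kdm5/control library 1, 2 or 3 it was 0, 9 or 3. In the fits with no call, limma still gave 311 genes without Kdm5/AhR library 3 and 282 without Kdm5/control library 1 at an unadjusted p under 0.05. All 21 called genes kept their direction in each of these 6 fits, while Bcl6, Spata2l and Morc4 passed in 4 of them, Prob1 in 3, and 6 genes (Etv6, Acss3, Prrc2c, Acacb, Maoa and Cyp39a1) in none.

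**Figure D1:**
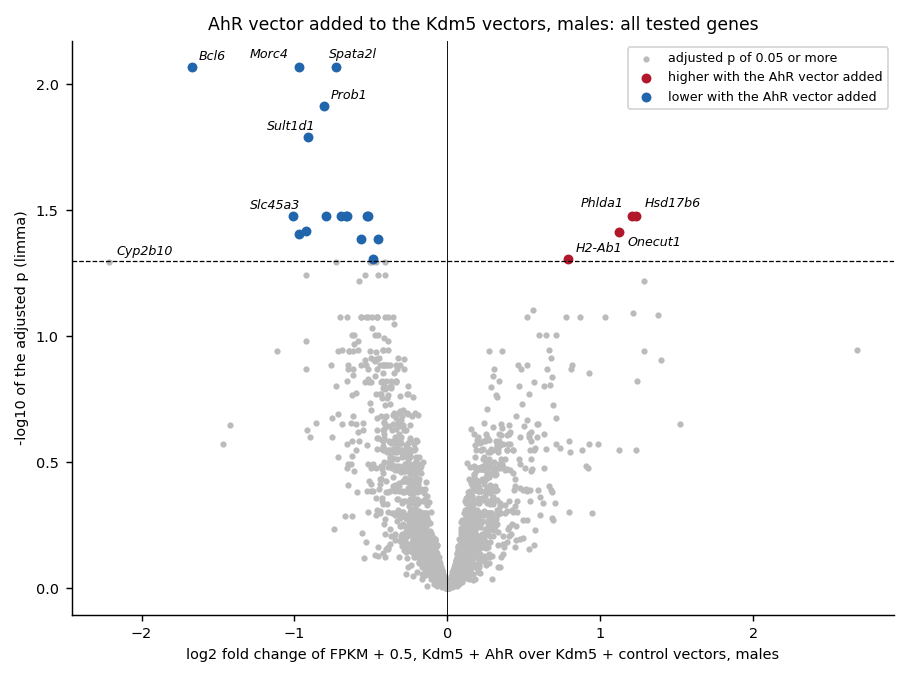
Each point is a tested gene, with the log2 fold change of FPKM + 0.5 (Kdm5/AhR over Kdm5/control livers of males) on the x axis and -log10 of the limma adjusted p on the y axis. The dashed line is an adjusted p of 0.05: 4 genes lie above it on the right, 17 on the left, and Cyp2b10, at -2.21, lies just under it.

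Promoters are shown for 4 called genes: Bcl6, whose response had opposite signs with and without the Kdm5 vectors, Sult1d1 and Acacb, which fell in both settings, and Onecut1, a transcription factor that rose. Each is the run of 250 bases before a RefSeq transcript start, in build GRCm38.p6, read 5′ to 3′ on the gene's strand. Capitals mark the core of the AhR response element (GCGTG, or CACGC where it lies on the other strand) and the E-box CACGTG, the site of clock and other helix-loop-helix factors. The Bcl6 window is chr16:23988853-23989102 (minus strand), that of Sult1d1 chr5:87569007-87569256 (minus strand), that of Acacb chr5:114165268-114165517 (plus strand, before a start that lies within the span of the gene), and that of Onecut1 chr9:74861671-74861920 (plus strand).
Bcl6: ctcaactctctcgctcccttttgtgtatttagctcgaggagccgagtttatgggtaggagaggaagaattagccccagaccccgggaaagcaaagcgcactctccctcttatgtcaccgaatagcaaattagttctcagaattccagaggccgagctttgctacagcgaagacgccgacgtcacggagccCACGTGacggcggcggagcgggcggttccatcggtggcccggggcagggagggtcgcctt
Sult1d1: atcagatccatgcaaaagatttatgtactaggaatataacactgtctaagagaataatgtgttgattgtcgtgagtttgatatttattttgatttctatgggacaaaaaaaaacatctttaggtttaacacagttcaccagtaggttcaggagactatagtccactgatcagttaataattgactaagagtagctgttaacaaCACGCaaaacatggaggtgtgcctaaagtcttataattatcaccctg
Acacb: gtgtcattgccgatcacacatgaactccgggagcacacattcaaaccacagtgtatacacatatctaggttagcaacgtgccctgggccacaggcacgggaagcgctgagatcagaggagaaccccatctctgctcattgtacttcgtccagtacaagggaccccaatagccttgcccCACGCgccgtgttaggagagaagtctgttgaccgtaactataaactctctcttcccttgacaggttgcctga
Onecut1: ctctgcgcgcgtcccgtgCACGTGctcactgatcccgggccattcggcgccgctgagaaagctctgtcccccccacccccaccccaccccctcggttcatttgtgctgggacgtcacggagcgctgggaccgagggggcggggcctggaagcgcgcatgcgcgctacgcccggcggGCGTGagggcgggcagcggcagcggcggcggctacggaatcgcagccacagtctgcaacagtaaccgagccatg

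The Bcl6 window held the E-box and no GCGTG, those of Sult1d1 and Acacb held GCGTG on the other strand and no E-box, and that of Onecut1 held both. Of the 21 called genes, 14 had a promoter in the RefSeq table. GCGTG, searched on both strands, was in at least 1 window of 9 of 12 such genes that fell and of 1 of 2 that rose, against 45.4% of the 1827 tested genes with a promoter and 28.2% of all 32851 promoter windows of the same length. CACGTG was in 2 of 12 and 1 of 2, against 9.74% of the tested genes, and the D-box TTATGTAA was in 1 of 12 (Peli2) and 0 of 2, against 1.20%. None of the 3 motifs contains another, and a match is a description of letters in the window, not of binding.

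Bcl6 encodes a zinc finger repressor that in mouse liver restrains genes of lipid oxidation. Its FPKM was 2.28, 1.99 and 2.00 in Kdm5/AhR livers and 9.57, 7.38 and 6.57 in Kdm5/control livers. Without the Kdm5 vectors it was 31.4, 30.0 and 16.3 in control/AhR males and 4.73, 3.89 and 4.56 in control/control males. All 3 Kdm5/AhR livers lay below every other male liver, and all 3 control/AhR livers lay above, so the groups of neither pair overlap. The log2 fold change with the AhR vector was -1.67 ± 0.29 on top of the Kdm5 vectors (adjusted p = 0.00851) and 2.38 ± 0.29 without them (adjusted p = 0.000111), and the 2 pairs share no library. The difference between them was -4.05 ± 0.41 (adjusted p = 4.43e-06, limma). In females with the Kdm5 vectors Bcl6 had 4.38, 6.23 and 7.87 FPKM with the AhR vector and 12.3, 5.38 and 7.88 FPKM with the control vector, groups that overlap.

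Spata2l, at chr8:123232255-123236263 in GRCm38.p6, followed the same pattern. It had 18.3, 15.5 and 13.2 FPKM in Kdm5/AhR livers and 26.5, 28.6 and 23.4 FPKM in Kdm5/control livers. Control/AhR males had 32.5, 40.7 and 34.2 FPKM and control/control males 16.6, 16.6 and 19.7 FPKM. The groups of each pair did not overlap, and the log2 fold change was -0.73 ± 0.12 with the Kdm5 vectors (adjusted p = 0.00851) and 1.00 ± 0.12 without them (adjusted p = 0.000111). The difference was -1.73 ± 0.17 (adjusted p = 4.43e-06), and both this difference and that of Bcl6 passed in all 12 fits that left out 1 library each.

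Of the 17 genes that fell on top of the Kdm5 vectors, 8 had a log2 fold change below 0 with the AhR vector alone, and of the 4 that rose 2 lay above 0 there. Over all tested genes, 487 of the 1191 below 0 and 844 of the 1103 above 0 had the same sign alone. Sult1d1, Acacb and H2-Ab1 passed in the same direction in both settings, Bcl6 and Spata2l in opposite directions. Of the 25 genes called with the AhR vector alone (1.09% of those tested), the 6 that fell (Cyp2b10, Cyp26b1, Arntl, Sult1d1, Acacb and Abcd4) all lay below 0 when the vector was added to the Kdm5 vectors. Of the 19 that rose alone, 7 lay above 0 and 12 below 0 when it was added.

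**Figure D2:**
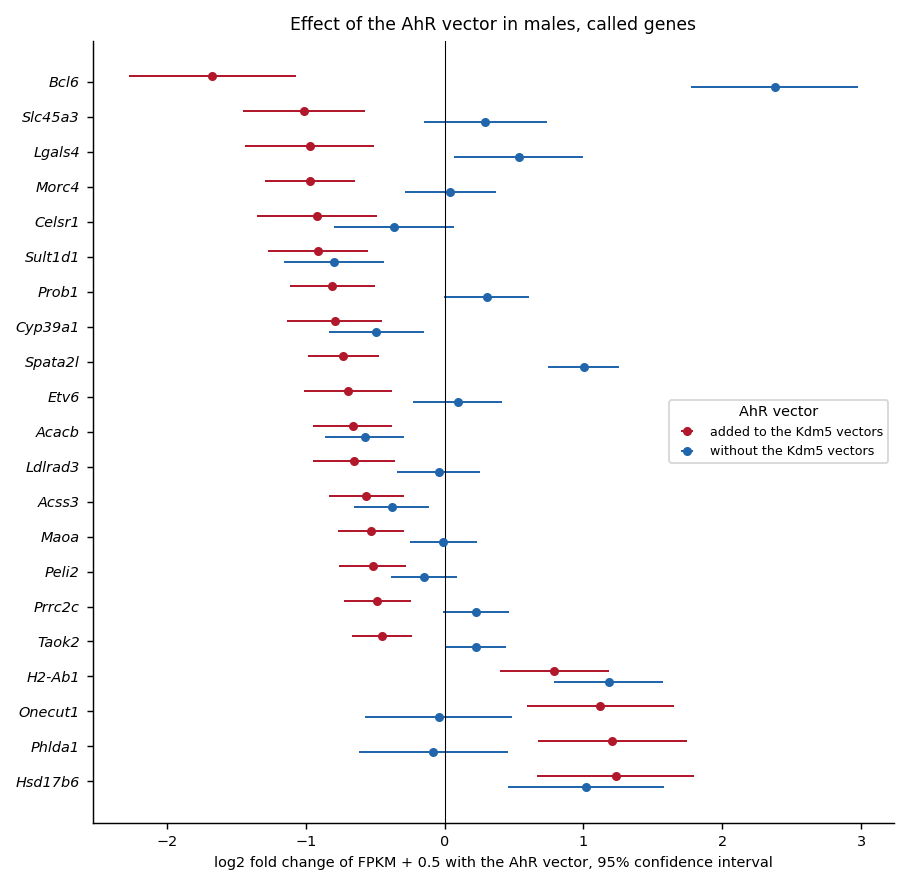
Points are log2 fold changes of FPKM + 0.5 with the AhR vector in males for the 21 called genes and bars are 95% confidence intervals from limma, with the vector added to the Kdm5 vectors in red (upper of each pair) and without them in blue. Bcl6 and Spata2l lie on opposite sides of 0 in the 2 settings, whereas Sult1d1, Acacb, H2-Ab1 and Hsd17b6 lie on the same side.

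Enzymes of conjugation, lipid and amine metabolism were among the genes that fell. Sult1d1, a cytosolic sulfotransferase of catecholamines and phenols, had 51.2, 51.0 and 65.6 FPKM in Kdm5/AhR livers and 118, 93.6 and 104 FPKM in Kdm5/control livers, a 1.88-fold fall (log2 -0.91 ± 0.17, adjusted p = 0.0162). In control/AhR males it had 39.6, 51.6 and 43.9 FPKM, against 71.3, 73.9 and 90.2 FPKM in control/control males. Both groups with the AhR vector lay under both groups without it, with no overlap, and the difference between the responses was -0.12 ± 0.24 (95% interval -0.62 to 0.39). Acacb, the acetyl-CoA carboxylase whose malonyl-CoA restrains fatty acid entry into mitochondria, had 3.35, 3.44 and 3.14 FPKM in Kdm5/AhR livers and 5.59, 6.11 and 4.93 FPKM in Kdm5/control livers. Its values were 2.97, 3.52 and 3.50 FPKM in control/AhR males and 5.05, 5.27 and 5.26 FPKM in control/control males. Again the groups with the AhR vector lay lowest, at log2 fold changes of -0.66 ± 0.14 (adjusted p = 0.0334) with and -0.57 ± 0.14 (adjusted p = 0.0472) without the Kdm5 vectors.

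Cyp39a1, an oxysterol 7-alpha-hydroxylase of bile acid synthesis, had 12.5, 11.3 and 12.8 FPKM in Kdm5/AhR livers and 20.2, 25.1 and 19.5 FPKM in Kdm5/control livers. Maoa, the mitochondrial monoamine oxidase A, had 2.18, 2.40 and 1.98 FPKM in Kdm5/AhR livers and 3.43, 3.08 and 3.61 FPKM in Kdm5/control livers. Acss3, a mitochondrial short-chain acyl-CoA synthetase, had 6.87, 8.02 and 7.00 FPKM in Kdm5/AhR livers and 10.7, 11.4 and 10.8 FPKM in Kdm5/control livers. In all 3 genes the highest Kdm5/AhR liver lay below the lowest Kdm5/control liver. The falls were 1.73-fold, 1.44-fold and 1.48-fold (adjusted p = 0.0334, 0.0334 and 0.0409). Without the Kdm5 vectors the log2 fold changes were -0.49 ± 0.16, -0.01 ± 0.11 and -0.38 ± 0.13, and none of them passed there.

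Within the 11 tested genes of fatty acid and triglyceride synthesis, Acacb fell and none rose; 7 lay below 0 and 4 above, with a median log2 fold change of -0.14, against -0.01 over all tested genes. In 5 of the 11 the Kdm5/AhR livers lay entirely below the Kdm5/control livers, against 17.1% of all tested genes, and in none entirely above, against 10.5%. Fasn, the fatty acid synthase, had 8.53, 8.68 and 7.81 FPKM in Kdm5/AhR livers and 13.8, 13.9 and 13.4 FPKM in Kdm5/control livers, and Acaca, the cytosolic carboxylase, had 4.72, 3.99 and 4.91 FPKM and 6.68, 7.32 and 7.06 FPKM in the same groups. Neither group pair overlapped, but at log2 fold changes of -0.69 ± 0.21 and -0.58 ± 0.15 neither gene passed (adjusted p = 0.114 and 0.0602). Scd1, the stearoyl-CoA desaturase, ranged between 187 and 574 FPKM in Kdm5/AhR livers and between 115 and 459.7 FPKM in Kdm5/control livers, groups that overlap. Acacb, Fasn and Acaca have transcripts of 8788, 10050 and 9513 bases, in the longest quartile of the table, a property that moved with the result as described further on.

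Slc45a3, a solute carrier also called prostein, had 13.0, 12.1 and 9.28 FPKM in Kdm5/AhR livers and 25.4, 24.8 and 20.3 FPKM in Kdm5/control livers, a 2.02-fold fall (adjusted p = 0.0334). Lgals4, the sugar-binding protein galectin-4, had 6.79, 5.22 and 3.53 FPKM in Kdm5/AhR livers and 8.36, 12 and 11.0 FPKM in Kdm5/control livers, a 1.96-fold fall (adjusted p = 0.0393). Morc4, an ATPase of the MORC chromatin family, had 0.60, 0.56 and 0.40 FPKM in Kdm5/AhR livers and 1.81, 1.42 and 1.27 FPKM in Kdm5/control livers, low values near which the pseudocount of 0.5 weighs on the fold change of 1.96 (adjusted p = 0.00851). In all 3 the groups did not overlap. Their response also differed from that to the AhR vector alone, by -1.30 ± 0.30 for Slc45a3, -1.51 ± 0.31 for Lgals4 and -1.01 ± 0.22 for Morc4 on the log2 scale (adjusted p = 0.0304, 0.0196 and 0.0286). After removal of a trend on transcript length, as described further on, these differences were -1.19, -1.50 and -0.825. Only that of Lgals4 then passed. For Morc4, control/AhR and control/control males had 0.61, 0.81 and 0.87 FPKM and 0.79, 0.67 and 0.71 FPKM, so the 3 Kdm5/control livers stood above all other male livers.

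The remaining 7 genes that fell did so by between 1.37-fold and 1.89-fold. They were Celsr1, an atypical cadherin of planar cell polarity, Prob1, Etv6, a repressor of the ETS family, Ldlrad3, a membrane protein with LDL receptor repeats, Peli2, a ubiquitin ligase of Toll-like and interleukin-1 receptor signalling, Taok2, a protein kinase, and Prrc2c. Celsr1 had 1.13, 1.5 and 1.69 FPKM in Kdm5/AhR livers and 3.74, 2.43 and 3.41 FPKM in Kdm5/control livers. Etv6 had 2.18, 1.97 and 1.82 FPKM in Kdm5/AhR livers and 3.02, 3.99 and 3.62 FPKM in Kdm5/control livers. Prob1 had 1.76, 1.72 and 1.38 FPKM in Kdm5/AhR livers and 2.98, 3.34 and 3.29 FPKM in Kdm5/control livers. None of these groups overlapped, and the log2 fold changes were -0.92 ± 0.21, -0.69 ± 0.15 and -0.81 ± 0.15. Prob1 also differed from its response to the AhR vector alone, by -1.11 ± 0.21 (adjusted p = 0.0158), as did Prrc2c by -0.71 ± 0.16 (adjusted p = 0.0304) and Taok2 by -0.68 ± 0.15 (adjusted p = 0.0283). With a trend on transcript length removed, as described further on, these differences were -0.90, -0.33 and -0.46, and none passed. The log2 fold change of Prrc2c on top of the Kdm5 vectors was -0.48 as reported and -0.195 with that trend removed.

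Phlda1, whose product belongs to a pleckstrin homology-like family, had 35.0, 47.6 and 42.2 FPKM in Kdm5/AhR livers and 12.3, 22.5 and 19.6 FPKM in Kdm5/control livers, a 2.31-fold rise (log2 1.21 ± 0.26, adjusted p = 0.0334). Control/AhR and control/control males, at 16.8, 13.0 and 22.1 FPKM and 17.7, 26.6 and 12.2 FPKM, overlapped each other, and the highest of them lay below the lowest Kdm5/AhR liver. The test of the difference from the AhR vector alone did not pass (1.29 ± 0.36, adjusted p = 0.0754). Hsd17b6 had 81.2, 124 and 97.7 FPKM in Kdm5/AhR livers and 52.9, 30.5 and 46.0 FPKM in Kdm5/control livers, a 2.35-fold rise (adjusted p = 0.0334). With the AhR vector alone it had 106, 89.7 and 201 FPKM, against 61.4, 86.4 and 42.8 FPKM in control/control males, log2 1.02 ± 0.27, which missed the threshold (adjusted p = 0.0706). The highest value of this gene, 201 FPKM, came from 1 control/AhR liver. Onecut1 had 4.52, 2.16 and 3.88 FPKM in Kdm5/AhR livers and 1.21, 1.51 and 1.15 FPKM in Kdm5/control livers, a 2.18-fold rise (adjusted p = 0.0384), with Kdm5/AhR library 2 closest to the control range.

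**Figure D3:**
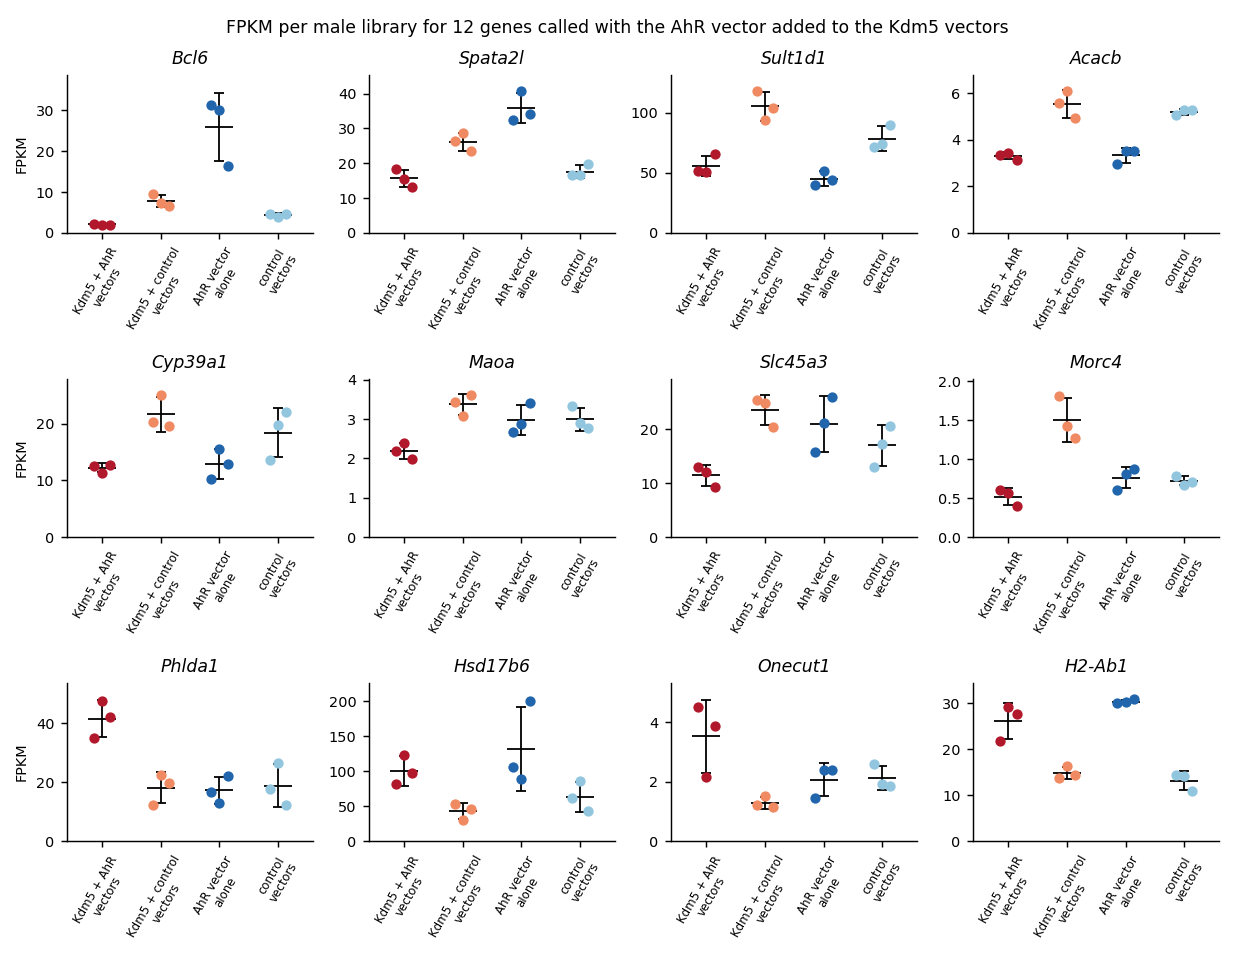
Points are FPKM of single libraries in the 4 male groups of 3 for 12 of the 21 called genes, and bars give the mean and SD. The Kdm5/AhR livers (dark red) do not overlap the Kdm5/control livers (orange) in any panel, and Bcl6 is highest in the livers with the AhR vector alone (dark blue).

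H2-Ab1, at chr17:34263227-34269418, had 21.7, 29.2 and 27.6 FPKM in Kdm5/AhR livers and 13.7, 16.4 and 14.5 FPKM in Kdm5/control livers, a 1.73-fold rise (log2 0.79 ± 0.19, adjusted p = 0.0493). In control/AhR males it had 30.1, 30.2 and 30.9 FPKM, against 14.5, 14.3 and 10.8 FPKM in control/control males, log2 1.18 ± 0.19 (adjusted p = 0.00314). All 6 male livers with the AhR vector thus lay above all 6 without it. The alpha chain H2-Aa had 28.8, 40.1 and 38.1 FPKM in Kdm5/AhR livers and 23.2, 22.8 and 19.8 FPKM in Kdm5/control livers, and Cd74, the invariant chain that escorts class II molecules, had 67.2, 105 and 104 FPKM and 61.5, 54.7 and 56.6 FPKM in the same groups. Neither overlapped, and neither passed, at log2 fold changes of 0.68 ± 0.21 and 0.64 ± 0.19 (adjusted p = 0.122 and 0.0984). Reads from near-identical H2 genes may have been split in counting, which leaves the values of single H2 genes uncertain.

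Over the 10 tested genes of antigen presentation, 1 rose and none fell. The log2 fold change was above 0 in 9 and below 0 in 1 (H2-Q4, -0.24), and the median was 0.38, against -0.01 over all tested genes. In 8 of the 10 all Kdm5/AhR livers lay above all Kdm5/control livers, against 10.5% of all genes, and the list's summed level was 3278 to 3520 FPKM in Kdm5/AhR livers and 2913 to 3023 FPKM in Kdm5/control livers. B2m, the light chain of class I molecules, had 1922, 1773 and 1757 FPKM in Kdm5/AhR livers and 1582, 1583 and 1584 FPKM in Kdm5/control livers. Of the 12 interferon-response genes none passed, and 9 lay above 0, with a median of 0.30. An unadjusted p under 0.05 (limma) was found in 4 of the 12, against 379 of all 2299 tested genes. The groups did not overlap in the higher direction in 7 and in the lower in 0, against 10.5% and 17.1% of all genes. Gbp2, an interferon-induced GTPase, had 2.43, 3.22 and 2.13 FPKM in Kdm5/AhR livers and 1.45, 1.39 and 1.45 FPKM in Kdm5/control livers (log2 0.67 ± 0.20, adjusted p = 0.114). Ifi47, another GTPase of this family, had 12.1, 10.6 and 11.4 FPKM in Kdm5/AhR livers and 7.22, 8.24 and 6.60 FPKM in Kdm5/control livers (log2 0.60 ± 0.17, adjusted p = 0.0984).

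Macrophage markers lay on the same side as these genes. The 9 tested markers of macrophages and Kupffer cells all lay above 0, with a median log2 fold change of 0.32, but none passed (2 with an unadjusted p under 0.05, limma) and 1 of 9, C1qc, did not overlap between the groups, a share near the 10.5% of all tested genes. Their summed level ranged between 224 and 343 FPKM in Kdm5/AhR livers and between 215 and 241 FPKM in Kdm5/control livers. Clec4f, a defining Kupffer cell marker, had 18.9, 30.9 and 26.7 FPKM in Kdm5/AhR livers and 26.2, 23.5 and 21.2 FPKM in Kdm5/control livers, which overlap. None of the 9 tested markers, out of 18 listed, was at 0 in all 6 libraries. The lowest sum and the lowest H2-Ab1 of the Kdm5/AhR livers were both in library 1. The part of the macrophage markers in the class II and interferon values was not tested, and in whole liver more cells of a type and more RNA per cell cannot be told apart. Neutrophil markers were not among the tested genes, and 1 marker of T, B and NK cells was tested, at a sum of 1.05 to 1.64 FPKM in Kdm5/AhR livers and 0.95 to 1.54 FPKM in Kdm5/control livers.

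Of the 9 tested AhR targets none passed and none had an unadjusted p under 0.05 (limma), with 3 above 0, 6 below and a median of -0.05. Only 9 of the 17 listed targets had values here, and Cyp1a1, Cyp1b1, Ahrr, Tiparp and Nqo1 were among those without. Cyp1a2, the constitutive liver cytochrome of the family, had 165, 132 and 137 FPKM in Kdm5/AhR livers and 151, 170.3 and 179 FPKM in Kdm5/control livers, which overlap (log2 -0.21 ± 0.22, 95% interval -0.68 to 0.26). Ugt1a6a and Ugt1a6b, glucuronosyltransferases that share exons and therefore reads, had log2 fold changes of -0.20 ± 0.19 and -0.05 ± 0.15. The glutathione transferase Gsta2 (0.05 ± 0.30), the UDP-glucose dehydrogenase Ugdh (-0.31 ± 0.19), the stress factor Nfe2l2 (0.01 ± 0.11) and the fatty acid carrier Cd36 (-0.05 ± 0.31) did not pass either. Tcim, a regulator of transcription in inflammation, had 8.07, 9.37 and 8.83 FPKM in Kdm5/AhR livers and 17.1, 10.3 and 10.1 FPKM in Kdm5/control livers, without overlap but short of the test (log2 -0.45 ± 0.26, adjusted p = 0.402). Its response differed from that without the Kdm5 vectors by -1.61 ± 0.37 (adjusted p = 0.0304).

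Cyp2b10, a cytochrome widely used as a readout of the nuclear receptor CAR, had the lowest log2 fold change of the tested genes and was named after its values were seen. It had 5.82, 3.83 and 6.33 FPKM in Kdm5/AhR livers and 36.9, 23.3 and 20.4 FPKM in Kdm5/control livers, 4.64-fold lower and without overlap (log2 -2.21 ± 0.53), and missed the threshold at an adjusted p of 0.0506. Control/AhR males had 2.85, 8.56 and 2.56 FPKM and control/control males 9.96, 26.6 and 40.9 FPKM, log2 -2.33 ± 0.53 (adjusted p = 0.0366). All 6 male livers with the AhR vector lay below all 6 without it, and the difference between the settings was 0.11 ± 0.76 (95% interval -1.47 to 1.69). Reads of the closely related Cyp2b genes may have been split between them. Among the other 15 tested targets of CAR and PXR, log2 fold changes lay between -0.52 for Gadd45b and 0.60 for Alas1, and none passed.

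Beyond Bcl6 and Spata2l, other regulators responded differently to the AhR vector with and without the Kdm5 vectors. The difference passed in 37 genes (1.61%), 5 higher and 32 lower; it holds the same libraries as the comparison with the Kdm5 vectors, so values are set side by side. Pim3, a serine/threonine kinase, had 25.5, 13.4 and 13.6 FPKM in Kdm5/AhR livers and 25.9, 24.1 and 21.3 FPKM in Kdm5/control livers, and 32.0, 52.4 and 44.5 FPKM in control/AhR males against 22.5, 18.1 and 14.0 FPKM in control/control males (difference -1.70 ± 0.34, adjusted p = 0.0158). Per1, a repressor of the circadian clock, had 6.20, 5.71 and 4.41 FPKM in Kdm5/AhR livers and 8.17, 9.38 and 7.72 FPKM in Kdm5/control livers, and 7.84, 8.99 and 13.6 FPKM in control/AhR males against 3.57, 5.02 and 6.70 FPKM in control/control males (difference -1.52 ± 0.30, adjusted p = 0.0158). The Pim3 values overlapped in the first of these pairs and not in the second. Per1 had its lower values with the AhR vector in the first pair and its higher ones in the second, with no overlap in either pair. Arrdc2, an arrestin-domain protein, and Cep85l, a centrosomal protein, differed by -1.65 ± 0.33 and -1.93 ± 0.43 (adjusted p = 0.0158 and 0.0304). The log2 fold change of Arrdc2 was -0.33 ± 0.23 with and 1.32 ± 0.23 without the Kdm5 vectors, and that of Cep85l -0.92 ± 0.31 with and 1.00 ± 0.31 without them.

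In the higher direction the difference passed for Camk2b, Id2 and Tbx3. Id2, a helix-loop-helix protein that blocks DNA binding of its partners, had 76.2, 78.5 and 98.8 FPKM in Kdm5/AhR livers and 38.2, 57.1 and 61.4 FPKM in Kdm5/control livers. Without the Kdm5 vectors it had 47.2, 39.5 and 46.6 FPKM in control/AhR males and 77.6, 88.3 and 73.4 FPKM in control/control males. The groups did not overlap in either pair and stood in opposite order, with a difference of 1.54 ± 0.29 (adjusted p = 0.0158). Camk2b, a subunit of calcium/calmodulin-dependent kinase, had 4.08, 3.90 and 2.16 FPKM in Kdm5/AhR livers and 0.67, 1.53 and 2.13 FPKM in Kdm5/control livers, and 0.37, 0.73 and 0.80 FPKM in control/AhR males against 2.01, 1.63 and 1.44 FPKM in control/control males. Its log2 fold change was 1.03 ± 0.29 with and -0.97 ± 0.29 without the Kdm5 vectors, a difference of 2.00 ± 0.40 (adjusted p = 0.0158) to which both settings contribute. Tbx3, a T-box factor of hepatocytes around the central vein, had 5.89, 5.40 and 5.23 FPKM in Kdm5/AhR livers and 3.02, 4.94 and 4.96 FPKM in Kdm5/control livers, and 4.25, 4.52 and 3.92 FPKM in control/AhR males against 7.54, 7.28 and 5.64 FPKM in control/control males (difference 0.97 ± 0.24, adjusted p = 0.0407). On their own, with the AhR vector added to the Kdm5 vectors, none of the 3 passed (adjusted p = 0.0984 for Id2, 0.0841 for Camk2b and 0.307 for Tbx3).

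Glucocorticoid-responsive genes lay mostly below 0 on top of the Kdm5 vectors and above 0 without them. None of the 22 tested members passed in the comparison with the Kdm5 vectors (6 had an unadjusted p under 0.05, limma); 20 lay below 0 and 2 above (Mt1, 0.43, and Mt2, 0.69), with a median of -0.42, against -0.01 over all tested genes. In 11 of the 22 the Kdm5/AhR livers lay entirely below the Kdm5/control livers, against 17.1% of all genes, and in none entirely above. The median of the same genes was 0.44 with the AhR vector alone, against 0.07 over all genes, from libraries that the first pair does not share. Ddit4, an inhibitor of mTOR signalling, had 2.05, 1.94 and 1.61 FPKM in Kdm5/AhR livers and 5.03, 3.02 and 4.08 FPKM in Kdm5/control livers (log2 -0.92 ± 0.38, adjusted p = 0.235). Tat, the tyrosine aminotransferase, had 557, 584 and 585 FPKM in Kdm5/AhR livers and 1033, 882 and 923 FPKM in Kdm5/control livers (log2 -0.71 ± 0.34, adjusted p = 0.301). Igfbp1, an IGF-binding protein of fasting, had 36.2, 29.4 and 28.8 FPKM in Kdm5/AhR livers and 47.3, 91.1 and 43.0 FPKM in Kdm5/control livers (log2 -0.86 ± 0.34, adjusted p = 0.22). None of these 3 pairs of groups overlapped. When the list was drawn up, 3 of its members, Per1, Pim3 and Arrdc2, were known to rise with the AhR vector alone. The median of 0.44 with the AhR vector alone is therefore not free of that choice.

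Clock genes did not move one way. Of 13 tested, 7 lay above 0 and 6 below, none passed, and 5 had an unadjusted p under 0.05 (limma). Dbp, a clock output activator, had 39.4, 28.2 and 28.3 FPKM in Kdm5/AhR livers and 7.10, 19.1 and 11.6 FPKM in Kdm5/control livers (log2 1.40 ± 0.44, adjusted p = 0.124), and with the AhR vector alone 16.4, 17.6 and 22.6 FPKM, against 8.96, 10.8 and 2.87 FPKM in control/control males (log2 1.43 ± 0.44). Arntl, the core activator BMAL1, had 2.56, 3.12 and 2.86 FPKM in Kdm5/AhR livers and 5.12, 3.67 and 4.28 FPKM in Kdm5/control livers (log2 -0.53 ± 0.17, adjusted p = 0.13). Neither pair overlapped. The hour at which livers were taken is not given in the sources used here, and its part in these values was not tested.

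**Figure D4:**
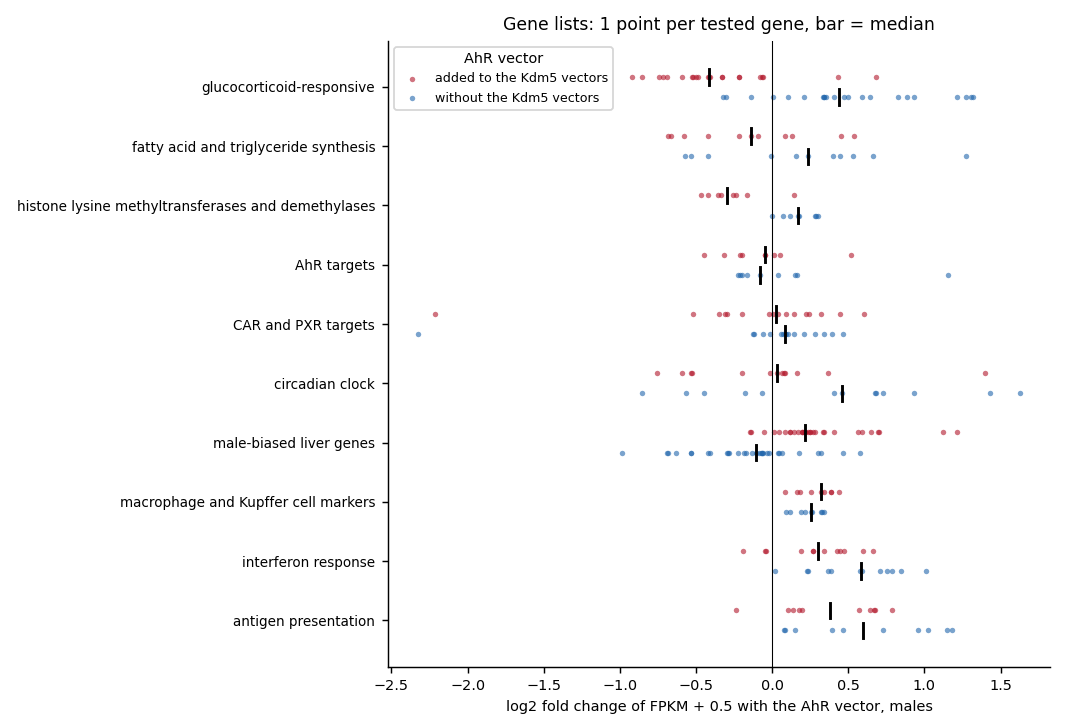
Each point is the log2 fold change of FPKM + 0.5 of 1 tested gene with the AhR vector in males, in red (upper row) added to the Kdm5 vectors and in blue without them, and black bars are medians. The glucocorticoid-responsive genes have medians of -0.42 and 0.44 in the 2 settings, and the antigen presentation genes 0.38 and 0.60.

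Other groups of liver genes gave no call of their own. None of 17 genes of bile acid synthesis and transport passed (2 with an unadjusted p under 0.05, limma), with a median of -0.06. Cyp8b1, the sterol 12-alpha-hydroxylase, had 515, 462 and 425 FPKM in Kdm5/AhR livers and 425, 539.7 and 552 FPKM in Kdm5/control livers. None of 22 PPAR alpha and fatty acid oxidation genes passed (1 with an unadjusted p under 0.05), with 16 below 0 and a median of -0.08. None of 8 genes of ethanol and acetaldehyde metabolism passed or had an unadjusted p under 0.05, and their log2 fold changes lay between -0.19 and 0.34. Cyp2e1, the ethanol-oxidising cytochrome, had 7105, 6167 and 6358 FPKM in Kdm5/AhR livers and 6683, 7258 and 6642 FPKM in Kdm5/control livers. Among 12 genes of the ER stress and amino acid response 8 lay above 0, with a median of 0.18, and none passed (1 with an unadjusted p under 0.05). The 10 markers of stellate cells and fibroblasts lay below 0 in 8 cases, with a median of -0.15 and summed levels of 342 to 354 FPKM in Kdm5/AhR livers and 364 to 403 FPKM in Kdm5/control livers, while the 10 endothelial markers summed to between 97.6 and 139 FPKM and between 113 and 125 FPKM in the same groups.

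Genes of higher level in male than in female liver lay above 0 in 28 of 31 cases with the AhR vector added to the Kdm5 vectors, with a median of 0.22, against -0.01 over all tested genes. None passed, 3 had an unadjusted p under 0.05 (limma), and 6 of 31 did not overlap in the higher direction and 0 in the lower, against 10.5% and 17.1% of all tested genes. Cyp7b1, an oxysterol hydroxylase, had 71.6, 84.2 and 74.4 FPKM in Kdm5/AhR livers and 55.7, 41.7 and 49.7 FPKM in Kdm5/control livers (log2 0.65 ± 0.29, adjusted p = 0.281). Hsd3b5, a male steroid dehydrogenase, had 28.9, 40.1 and 26.6 FPKM in Kdm5/AhR livers and 22.6, 12.3 and 10.0 FPKM in Kdm5/control livers (log2 1.12 ± 0.52, adjusted p = 0.283). Both pairs of groups were free of overlap. The list has 13 Mup genes of the major urinary proteins, whose near-identical sequences share reads; all Mup genes together took 18.1%, 24.3% and 22.8% of the summed FPKM in Kdm5/AhR livers and 23.0%, 17.3% and 16.4% in Kdm5/control livers. Those shares overlap. The median of the list was -0.11 with the AhR vector alone and -0.35 in females with the Kdm5 vectors. Among 30 tested genes of higher level in female than in male liver, 18 lay above 0 and 7 below in the male Kdm5 comparison. Their median was 0.08, and none of them passed. In 4 the groups did not overlap in the higher direction and in 2 in the lower, against 10.5% and 17.1% of all genes.

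In females the same vectors gave other calls. With the AhR vector added to the Kdm5 vectors, 48 genes passed in females (2.09%), 42 higher and 6 lower, and none of the 21 genes called in males passed there in the same direction. The difference between the sexes, males minus females, passed in 142 genes (6.18%), 15 higher and 127 lower. H2-Ab1 had 20.2, 18.9 and 26.9 FPKM in Kdm5/AhR females and 23.3, 19.2 and 36.4 FPKM in Kdm5/control females, groups that overlap, and differed by 1.01 ± 0.27 (adjusted p = 0.0311). Onecut1 had 4.45, 3.81 and 3.69 FPKM in Kdm5/AhR females and 4.34, 6.07 and 3.25 FPKM in Kdm5/control females and differed by 1.26 ± 0.36 (adjusted p = 0.0416). Sult1d1 had 70.3, 74.1 and 63.1 FPKM in Kdm5/AhR females and 73.0, 77.8 and 52.1 FPKM in Kdm5/control females and differed by -0.96 ± 0.24 (adjusted p = 0.0251). These 3 genes overlapped between the female groups and did not between the male ones. With a trend on transcript length removed, as described further on, their differences were 0.81, 1.48 and -0.97 in the order given. None of the 3 passed in that form, in which the difference between the sexes passed in 2 genes.

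Afp, the fetal albumin-like protein, ranged between 0.16 and 0.64 FPKM in male Kdm5/AhR livers and between 0.55 and 0.77 FPKM in male Kdm5/control livers. In females it had 16, 25.2 and 21.4 FPKM with the AhR vector and 10.3, 5.85 and 8.54 FPKM without it, and the responses differed by -1.79 ± 0.41 (adjusted p = 0.0173). Its low level in males, near the pseudocount of 0.5, limits what the male values can show. Spata2l differed by -1.13 ± 0.17 (adjusted p = 0.00577), with 24.4, 24.0 and 25.6 FPKM in Kdm5/AhR females and 17.0, 19.1 and 19.6 FPKM in Kdm5/control females, the reverse of the order in males. Mup2 had 3380.3, 6304 and 2956 FPKM in male Kdm5/AhR livers and 2919, 2591 and 1794 FPKM in male Kdm5/control livers, against 1394, 1731 and 1309 FPKM in Kdm5/AhR females and 2301, 4234 and 2367 FPKM in Kdm5/control females (difference 1.69 ± 0.47, adjusted p = 0.0373).

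Transcript length moved with these values. The length of the longest transcript (protein-coding where the gene has one) was known for 2277 of the 2299 tested genes (99.0%, GENCODE M21). From the shortest quartile of genes to the longest, the median log2 fold change was 0.08, 0.04, -0.04 and -0.21, whereas with the AhR vector alone it was 0.07, 0.06, 0.07 and 0.09. In the longest quartile, 4611 to 27908 bases, Kdm5/AhR livers lay entirely below Kdm5/control livers in 242 of 569 genes and entirely above in 15, and 8 of the 17 genes that fell belong to it. For each library, the median deviation of the longest quartile minus that of the shortest was -0.22, -0.13 and -0.16 in Kdm5/AhR livers and 0.13, 0.08 and 0.15 in Kdm5/control livers, on the log2 scale relative to the mean of the 12 male libraries. It was 0.01, -0.09 and 0.18 in control/AhR males and 0.14, -0.03 and -0.08 in control/control males, so the Kdm5/AhR livers lay below all others. In females with the Kdm5 vectors the median log2 fold change with the AhR vector rose with length instead. From the shortest quartile to the longest it was -0.10, -0.01, 0.08 and 0.27. Of the 127 genes lower in the difference between the sexes, which holds both trends, 112 were in the longest quartile.

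When a smooth trend on transcript length was removed from each library, a step added after the data were seen, 13 genes passed, 4 higher and 9 lower, and 11 of them were among the 21. Those were Bcl6, Spata2l, Morc4, Prob1, Sult1d1, Slc45a3, Lgals4, Cyp39a1, Ldlrad3, Phlda1 and Onecut1, and all 21 kept their direction. The difference from the AhR vector alone then passed in 11 genes (4 higher, 7 lower), and the difference between the sexes in 2, Spata2l (lower) and H13 (higher). Most genes called between the sexes had smaller log2 differences with the trend removed. Huwe1 stood at -0.01 with the trend removed and -0.73 as reported, Apob at -0.02 and -0.72, and Usp9x at 0.03 and -0.62. These genes were picked with their values in view. Some lost calls did not come with smaller differences: 1.48 and 1.26 in Onecut1, -1.86 and -1.79 in Afp, and -0.97 and -0.96 in Sult1d1. In the difference from the AhR vector alone, Per1 stood at -1.32 with the trend removed and -1.52 as reported, and Tcim at -1.58 and -1.61. Prrc2c shrank more, to -0.33 from -0.71, as did Son, to -0.28 from -0.62. The 8 tested enzymes that write or erase histone marks lay below 0 in 7 cases with a median of -0.30, and with the trend removed the median was -0.05; none passed in either form (4 had an unadjusted p under 0.05 with the trend in place, limma). Kmt2d, a histone H3 lysine 4 methyltransferase with a long transcript, had 1.27, 1.30 and 1.22 FPKM in Kdm5/AhR livers and 1.68, 1.92 and 2.24 FPKM in Kdm5/control livers (log2 -0.47 ± 0.14, adjusted p = 0.116). The medians of glucocorticoid-responsive, antigen presentation and interferon genes were -0.37, 0.31 and 0.39 with the trend removed.

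**Figure D5:**
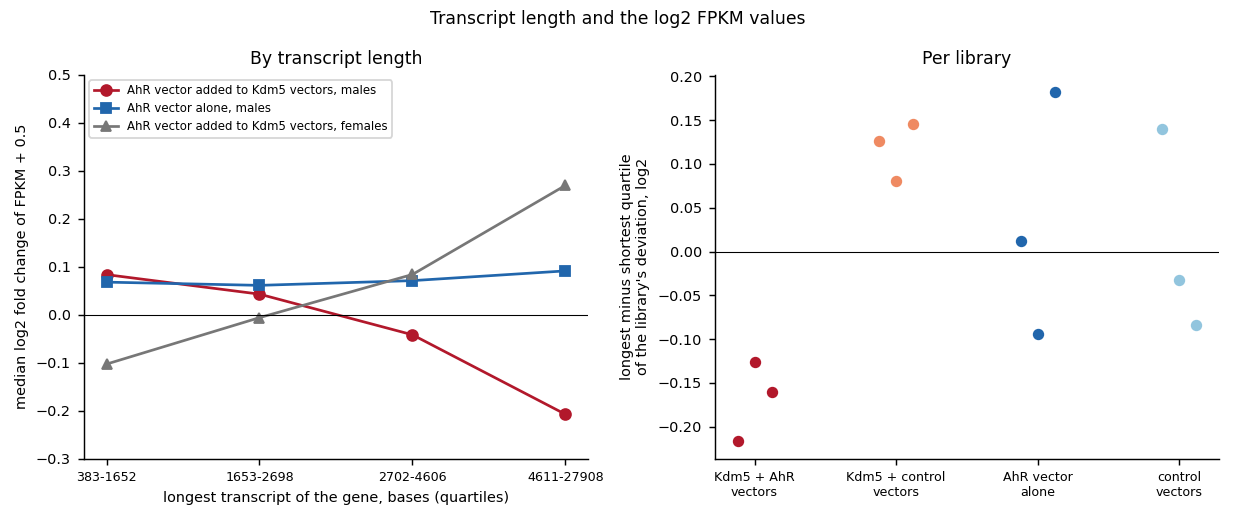
The left panel gives the median log2 fold change of FPKM + 0.5 in quartiles of transcript length (bases) for the AhR vector added to the Kdm5 vectors in males (red), alone in males (blue) and added in females (grey). The right panel gives, for each of the 12 male libraries, the longest quartile's median deviation minus the shortest's (log2): the 3 Kdm5/AhR livers lie between -0.22 and -0.13 and the 3 Kdm5/control livers between 0.08 and 0.15.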

How the data were processed

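Whole-liver RNA-seq of alcohol-fed mice, 24 libraries in 8 groups of 3, was used as deposited. The authors' table holds FPKM per gene for each library, to 2 decimals, although its deposited name calls the values raw counts; they are not whole numbers, so no count test was run and read depth is unknown. HISAT, Bowtie2 and build GRCm38.p6 are named in the submitters' processing notes, with no version given in the sources used here. Whether counting used strand is not given there either, so overlapping and antisense genes may share reads.

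Genes at 1 FPKM or more in at least 3 libraries (2299 of 2372) were tested as log2(FPKM + 0.5) with limma 3.58.1 in R 4.3.3, with 1 mean per group over all 24 libraries, trended robust empirical Bayes, 16 residual degrees of freedom and Benjamini-Hochberg adjustment over all tested genes at 0.05, two-sided. The comparisons were Kdm5/AhR minus Kdm5/control males, the same without the Kdm5 vectors, the same in females, and the differences between these responses. A single exact permutation test of 3 against 3 libraries cannot go below a p of 0.1. The procedure was tested on simulated data.

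The genes named were the AhR targets, up to 15 called genes in each direction with a mean of at least 1 FPKM and groups that do not overlap, and up to 8 in each direction for each difference; genes of lists serve as examples. The members and the 36 gene lists were chosen with earlier results of these data known. Of the 689 genes listed, 362 were in the table of 2372 genes, so many lists were tested only in part. No library was left out and no 2 libraries were identical. Kdm5b and Ahr were not analysed here. A tested AhR target is not reported here. Transcript lengths are from GENCODE M21; coordinates and promoters are from RefSeq for GRCm38.p6. Alternatives changed the pseudocount, the filter, the scaling, the libraries fitted and their weights, the variance model and, added after the data were seen, a transcript-length trend.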

Additional observations from a re-analysis of the deposited data

Results flagged for a closer look

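The response to the AhR vector differed between males with and without the Kdm5 vectors, by the test of the difference itself (limma, with standard errors), in 37 genes. The named ones of higher value with the Kdm5 vectors were Camk2b (2.00 ± 0.40, adjusted p = 0.0158), Id2 (1.54 ± 0.29, adjusted p = 0.0158) and Tbx3 (0.97 ± 0.24, adjusted p = 0.0407) on the log2 scale. The named ones of lower value with the Kdm5 vectors were Bcl6 (-4.05 ± 0.41, adjusted p = 4.43e-06), Cep85l (-1.93 ± 0.43, adjusted p = 0.0304), Spata2l (-1.73 ± 0.17, adjusted p = 4.43e-06), Pim3 (-1.70 ± 0.34, adjusted p = 0.0158), Arrdc2 (-1.65 ± 0.33, adjusted p = 0.0158), Tcim (-1.61 ± 0.37, adjusted p = 0.0304), Per1 (-1.52 ± 0.30, adjusted p = 0.0158) and Lgals4 (-1.51 ± 0.31, adjusted p = 0.0196).

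The response with the Kdm5 vectors differed between males and females by the same kind of test in 142 genes. Higher in males were Mup2 (1.69 ± 0.47, adjusted p = 0.0373), Onecut1 (1.26 ± 0.36, adjusted p = 0.0416), H2-Ab1 (1.01 ± 0.27, adjusted p = 0.0311), Wdr83os (0.74 ± 0.20, adjusted p = 0.0324), Pam16 (0.68 ± 0.20, adjusted p = 0.0488), Hcfc1r1 (0.60 ± 0.16, adjusted p = 0.0348), Pnrc1 (0.58 ± 0.13, adjusted p = 0.0173) and Tm2d2 (0.54 ± 0.14, adjusted p = 0.0346). Lower in males were Cox7a1 (-3.04 ± 0.69, adjusted p = 0.0173), Afp (-1.79 ± 0.41, adjusted p = 0.0173), Zbed6 (-1.64 ± 0.41, adjusted p = 0.0239), Lmbrd2 (-1.39 ± 0.32, adjusted p = 0.0173), Abcb1a (-1.35 ± 0.30, adjusted p = 0.0173), Hacd4 (-1.28 ± 0.31, adjusted p = 0.0197), Rap1gap (-1.26 ± 0.35, adjusted p = 0.0354) and Trim56 (-1.17 ± 0.28, adjusted p = 0.0194). Cox7a1 had 0, 0.74 and 0 FPKM in male Kdm5/AhR livers and 1.52, 0.74 and 0 FPKM in male Kdm5/control livers, against 5.69, 2.99 and 3.03 FPKM in Kdm5/AhR females and 0.74, 0.40 and 0 FPKM in Kdm5/control females, values near the pseudocount in all but the Kdm5/AhR females. With the transcript-length trend removed, 2 genes passed in this difference, Spata2l and H13. The log2 difference was then -3.32 for Cox7a1, -1.86 for Afp and 1.48 for Onecut1, each at least as large as reported. It was smaller than reported for the other genes named here, such as -0.60 for Trim56, -0.87 for Lmbrd2 and 0.41 for Pam16.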

How the results depend on the processing

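All 21 called genes kept their direction with each compared library left out, with median-of-ratios scaling and with the transcript-length trend removed. The count of 21 was 7 among the 1702 genes averaging 5 FPKM or more, 8 in the male libraries alone and 37 in the 6 compared libraries alone. It was 235 with library weights and 13 with the transcript-length trend removed, an alternative chosen after the data were seen. Leaving out 1 library gave between 0 and 14. Of the 21 genes, 7 were among the 8 of the male libraries alone and 13 among the 37 of the 6 compared libraries. The 37 differences between males with and without the Kdm5 vectors were 13 in the male libraries alone, 97 with library weights and 11 with the length trend removed. Leaving out 1 library gave 5 to 44: 5 and 10 without Kdm5/AhR library 2 and 3, 8, 24 and 19 without Kdm5/control library 1, 2 and 3, 7 without control/AhR library 3, and 22 without control/control library 2 or 3. The 142 differences between the sexes were 37 among genes averaging 5 FPKM or more, 291 with library weights and 2 with the length trend removed. Leaving out 1 library gave 34 to 200, with 93 and 88 without male Kdm5/AhR library 1 and 3, 81 and 68 without male Kdm5/control library 1 and 3, 74 and 65 without Kdm5/AhR female library 2 and 3, and 34 without Kdm5/control female library 3. The causes were not tested. Other pseudocounts, no filter, median-of-ratios scaling and a variance model neither trended nor robust kept each total within 1.5 times. By direction, the 17 genes that fell were 26 with that variance model. The 32 lower differences with and without the Kdm5 vectors were 20 with median-of-ratios scaling, and the 5 higher ones were 10 with no filter. The 15 higher differences between the sexes were 24 with median-of-ratios scaling. The median of the glucocorticoid-responsive genes stayed between -0.47 and -0.32, and that of antigen presentation between 0.31 and 0.47, over 10 alternatives. No paired analysis was possible because the replicate numbers were given in accession order and pair no samples. With depth unknown, no counting error can be set beside values near 0.5 FPKM.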
